A study of Mus musculus with 6 samples.

Results

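The genes encoding the subunits of the RNA exosome, Exosc1 to Exosc10, were examined in mouse oocytes lacking LSM14B. The members were the rows of the deposited expression table that carry these 10 gene symbols, 10 of 24255 genes, and all 10 were found. The study set the transcriptomes of Lsm14b-knockout (Lsm14b-KO) against those of wild type (WT) fully-grown oocytes (FGOs) at the germinal vesicle (GV) stage, which have completed growth and remain arrested in meiotic prophase. LSM14B is an RNA-binding protein of oocyte ribonucleoprotein particles. There were 3 libraries per genotype, 6 in all, each made from the RNA of 20 oocytes by Smart-seq2 amplification. Nothing in the labels says that the libraries of a group came from separate animals, so the p-values measure only the spread between these libraries, which may be technical.

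WT mice carried no Lsm14b mutation by their label. Lsm14b-KO mice were homozygous for Lsm14b tm1a(KOMP)Mbp, a reporter-tagged insertion carried in every cell of the animal, so the allele was not restricted to oocytes. Both groups had a C57BL/6J background and received 5 IU of PMSG, which stimulates follicle growth, 46 h before oocytes were collected. The age of these mice is not given in the sources used here. Lsm14b itself stood at 2.77, 3.98 and 1.72 FPKM in WT replicates 1, 2 and 3, and was listed at 0, 0 and 0.102 FPKM in the Lsm14b-KO libraries, so the targeted gene followed the labels.

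The RNA exosome degrades and trims RNA from its 3′ end in the nucleus and the cytoplasm. Its core is a barrel made of a ring of RNase PH-like proteins, EXOSC4 to EXOSC9, which are arranged as the pairs EXOSC4 with EXOSC9, EXOSC5 with EXOSC8 and EXOSC6 with EXOSC7, closed on one side by a cap of the RNA-binding proteins EXOSC1, EXOSC2 and EXOSC3. In mammals the core itself does not cut RNA, and catalysis comes from the bound nucleases EXOSC10, DIS3 and DIS3L. Nuclear RNA decay by the exosome is known to be needed for the growth and meiotic maturation of mouse oocytes.

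All values are FPKM, fragments counted relative to transcript length and to the mapped reads of the library. Levels of different genes can be compared only roughly, since some genes share sequence with others and changes moved with transcript length. Fold changes are differences of log2(FPKM + 1), Lsm14b-KO minus WT, and understate the change of genes with low values. Genes reaching 1 FPKM in 1 or more libraries were tested with limma, and a gene was called at an adjusted p (Benjamini-Hochberg over 6398 tested genes) under 0.05. In pools of oocytes, fewer cells holding a transcript and less of it per cell cannot be told apart.

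The libraries differed in more than genotype. Summed over all genes, FPKM came to 1141324 to 1244182 in WT and 564671 to 1029728 in Lsm14b-KO. Relative depth, read from the commonest ratio of very low values, for Lsm14b-KO replicates 1, 2 and 3 was 1.33, 1.95 and 2.17 times that of WT replicate 1, and 1.14 and 1.03 times in WT replicates 2 and 3. Correlations were taken on log2(FPKM + 1) across all tested genes, which are not independent replicates. Lsm14b-KO replicate 1 correlated with the WT libraries at Pearson's r of 0.952 to 0.954, while replicate 2 did so at 0.867 to 0.890. All 12 oocyte markers reached 1 FPKM, with summed levels of 9817 to 10798 FPKM in WT and 11663 to 12063 FPKM in Lsm14b-KO libraries. Of 12 cumulus and granulosa markers, 3 reached 1 FPKM (Fshr, Cyp19a1 and Inha) and 3 were at 0 throughout, and their sums overlapped at 9.73 to 13.5 FPKM in WT and 6.14 to 10.2 FPKM in Lsm14b-KO. The 7 red blood cell markers in the table were at 0 in every library. The part of the depth and FPKM sums in the results was not tested.

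Exosome subunit mRNAs were lower in the Lsm14b-KO oocytes for 3 of the 8 members that passed the low-value filter, and higher for 0 of 8. The fall of the cap gene Exosc3 was the largest, from a mean of 34.9 to 0.998 FPKM, and the ring genes Exosc4 and Exosc7 fell as well. Over all tested genes, 21.6% were called in either direction, 15.2% were called lower and 6.38% were called higher. The fitted change was below 0 for 7 of the 8 members, against 3401 of all 6398 tested genes. The median log2 fold change was -1.14 for the members, against -0.075 over all tested genes. The groups did not overlap, with every Lsm14b-KO library under every WT library, for 5 of the 8 (Exosc1, Exosc3, Exosc4, Exosc5 and Exosc7), against 26.0% of all tested genes. The other members, Exosc6 and Exosc10, were under 1 FPKM in every library and were not tested.

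**Figure D1:**
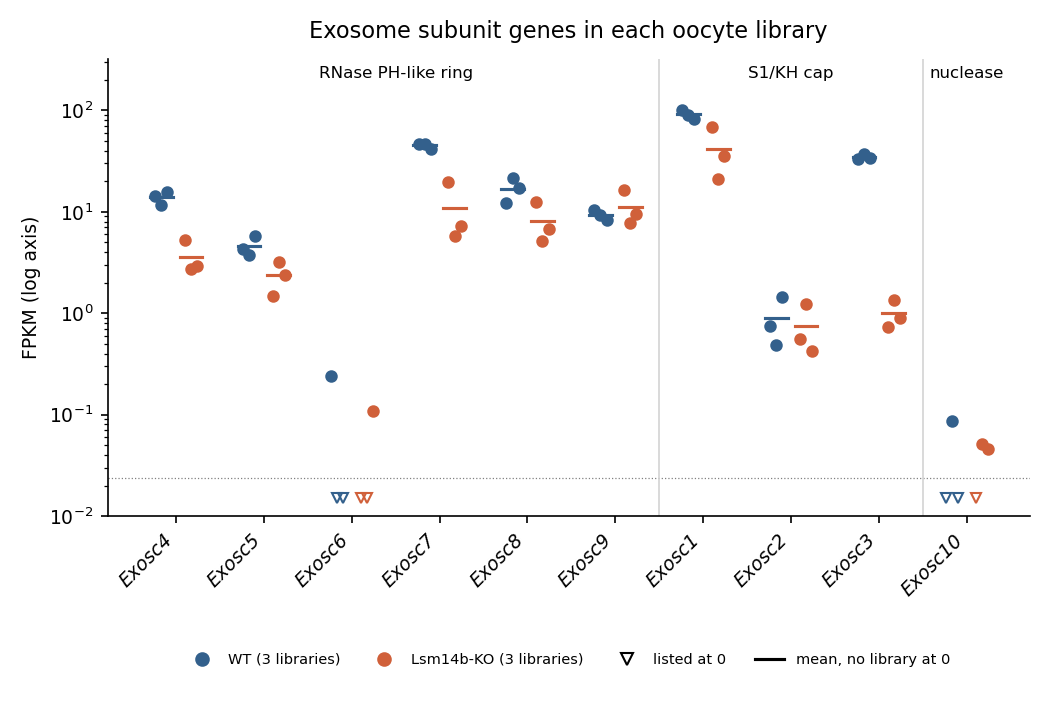
FPKM (log axis) of the 10 exosome subunit genes in each of the 3 WT and 3 Lsm14b-KO libraries, grouped by their place in the complex. Points are libraries, horizontal bars are group means where no library is at 0, and open triangles under the dotted line are libraries listed at 0. Exosc3 shows the widest gap, with WT libraries at 33.5 to 37.3 FPKM and Lsm14b-KO libraries at 0.737 to 1.36 FPKM.

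Exosc3 encodes an RNA-binding cap subunit and lies on the minus strand at chr4:45316613-45342732 (GRCm38, the assembly also called mm10). It stood at 33.5, 37.3 and 33.9 FPKM in WT replicates 1, 2 and 3, against 0.737, 1.36 and 0.899 FPKM in replicates 1, 2 and 3 of Lsm14b-KO. The lowest WT library was far above the highest Lsm14b-KO library, and all 3 Lsm14b-KO libraries were low alike, including the one that most resembled WT over all tested genes. Mean FPKM was 35.0-fold lower in Lsm14b-KO (34.9 ± 2.08 in WT and 0.998 ± 0.322 in Lsm14b-KO, SD, n = 3 each). The log2 fold change was -4.18 ± 0.22 (SE; 95% interval -4.69 to -3.66; limma, adjusted p = 0.000271), the 9th largest fall among the 6398 tested genes. The call held under all 15 alternatives, with adjusted p from 1.66e-05 to 0.0107. Exosc3 shares 53 exonic nt with Dcaf10, a gene on the other strand that stayed between 0.0636 and 0.427 FPKM in all 6 libraries.

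Exosc1, at chr19:41922292-41933423 on the minus strand, encodes another cap subunit and was the most abundant of the family in both genotypes. Its levels were 101, 90.2 and 82.4 FPKM in WT and 69.2, 20.8 and 35.6 FPKM in Lsm14b-KO. Each Lsm14b-KO library was under each WT library, with Lsm14b-KO replicate 1 nearest to WT. The log2 fold change of -1.27 ± 0.43 (SE) did not pass the threshold (limma, adjusted p = 0.0691), but it did without Lsm14b-KO replicate 1, at -1.70 (limma, adjusted p = 0.00127). That fit called 2952 of its 6280 tested genes, 1800 of them lower. With all libraries, 1383 of 6398 were called, 975 of them lower.

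Exosc2, at chr2:31670715-31681349, encodes the remaining cap subunit and was much less abundant than the other cap genes. Exosc2 shares 358 exonic nt with Gm13427 on the other strand, for which no FPKM was listed under that name. Exosc2 stood at 0.744, 0.486 and 1.43 FPKM in WT and at 0.556, 1.24 and 0.425 FPKM in Lsm14b-KO. The groups overlapped fully. Its log2 fold change of -0.12 (95% interval -0.74 to 0.51; limma, adjusted p = 0.762) changed sign with the scaling, to 0.22 with every library scaled to one FPKM sum and to 0.077 after correction for length and GC content. The cap genes therefore moved unequally. Exosc3 over Exosc1 was 0.330, 0.413 and 0.412 in WT and 0.0106, 0.0652 and 0.0252 in Lsm14b-KO. This within-library ratio of FPKM is unchanged by a single scaling factor per library, but not by corrections that depend on length or level. The transcripts are 1077 nt (Exosc3) and 2296 nt (Exosc1). After correction for length and GC content, their log2 fold changes were -3.56 and -1.19.

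Among the ring genes, 2 of the 5 tested were called lower, Exosc4 and Exosc7, against 15.2% of all tested genes. Called higher were 0 of the 5, against 6.38% of all tested genes. Exosc7, at chr9:123113215-123136129 on the plus strand, had the second highest level of the family in WT. It stood at 46.6, 46.9 and 41.8 FPKM in WT and at 19.7, 5.72 and 7.28 FPKM in Lsm14b-KO. The groups were well apart, and Lsm14b-KO replicate 1 was again the nearest to WT. The mean was 4.14-fold lower, and the log2 fold change was -2.13 ± 0.42 (SE; 95% interval -3.11 to -1.16; limma, adjusted p = 0.0137). Leaving out Lsm14b-KO replicate 1 gave -2.63 on the log2 scale (limma, adjusted p = 6.43e-05). The number of all genes called also rose in that fit, from 1383 to 2952. The call was lost in 4 of the 15 alternatives, each of them a fit without 1 library: adjusted p was 0.0615 without WT replicate 1, 0.0591 without WT replicate 2, 0.0512 without WT replicate 3 and 0.0741 without Lsm14b-KO replicate 3 (limma). The number of all genes called also fell in these fits, to 408, 426, 537 and 321.

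Exosc4, at chr15:76327397-76330677, encodes the ring subunit that pairs with EXOSC9. Its levels were 14.5, 11.7 and 15.6 FPKM in WT and 5.22, 2.73 and 2.89 FPKM in Lsm14b-KO, with a clear gap between the groups. The mean was 3.85-fold lower, and the log2 fold change was -1.73 ± 0.27 (SE; 95% interval -2.35 to -1.10; limma, adjusted p = 0.00601). The call held under all 15 alternatives, with adjusted p up to 0.0442. Exosc4 shares 385 exonic nt with Oplah on the other strand, which was at 0 in every library.

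Exosc9, its partner, at chr3:36552606-36565727 on the plus strand, did not follow. It stood at 10.3, 9.24 and 8.32 FPKM in WT and at 16.2, 7.72 and 9.54 FPKM in Lsm14b-KO. The groups overlapped, with Lsm14b-KO replicate 1 above all WT libraries and replicate 2 below them. The log2 fold change was 0.18 (95% interval -0.51 to 0.88; limma, adjusted p = 0.657), it turned to -0.098 without Lsm14b-KO replicate 1, and it passed the threshold only with every library scaled to one FPKM sum (0.81; limma, adjusted p = 0.0439). Exosc9 shares 510 exonic nt with the cyclin gene Ccna2 on the other strand, and the sources used here do not say whether the libraries kept strand, so reads of the shared part cannot be told apart. Ccna2 was at 2.95 to 4.31 FPKM in WT and 3.72 to 5.23 FPKM in Lsm14b-KO.

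The other pair of ring genes measured well enough to test, Exosc5 and Exosc8, showed smaller differences. Exosc5, at chr7:25659164-25671368, stood at 4.31, 3.73 and 5.71 FPKM in WT and at 1.48, 3.23 and 2.40 FPKM in Lsm14b-KO. These groups did not overlap, but the gap between the nearest libraries was narrow, and the log2 fold change of -0.75 (95% interval -1.35 to -0.15; limma, adjusted p = 0.0742) was called under 0 of 15 alternatives. Exosc5 shares 355 exonic nt with Tmem91 on the other strand, and reads of the shared part cannot be told apart. Tmem91 was at 0, 0.998 and 0.398 FPKM in WT and at 0 in every Lsm14b-KO library. Exosc8, at chr3:54728678-54735393, stood at 12.3, 21.4 and 17.1 FPKM in WT and at 12.5, 5.14 and 6.73 FPKM in Lsm14b-KO. Lsm14b-KO replicate 1 lay just above the lowest WT library, so the groups overlapped. Its log2 fold change was -1.02 (95% interval -1.84 to -0.20; limma, adjusted p = 0.0734) and reached -1.35 without Lsm14b-KO replicate 1 (limma, adjusted p = 0.00385). The fit without that library called 2952 genes in all, against 1383 with every library kept. The exact permutation test of 3 against 3 libraries cannot give a two-sided p under 0.1, which is what it gave for Exosc1, Exosc3, Exosc4, Exosc5 and Exosc7.

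The last ring gene and the nuclear exonuclease were barely seen. Exosc6, at chr8:111056339-111057664, pairs with EXOSC7 in the ring and was listed at 0.240, 0 and 0 FPKM in WT and at 0, 0 and 0.109 FPKM in Lsm14b-KO. Its whole 1326 nt transcript lies within a transcript of the alanyl-tRNA synthetase gene Aars on the same strand, so its reads may have been divided between both genes. Aars was low as well, at 0.218, 0 and 0.0706 FPKM in WT and at 0.438, 0.448 and 0.402 FPKM in Lsm14b-KO. Exosc10, at chr4:148558429-148582401, encodes the nuclear exonuclease and was listed at 0, 0.0868 and 0 FPKM in WT and at 0, 0.0508 and 0.0455 FPKM in Lsm14b-KO. A value of 0 in such a table can be a failed estimate, and both genes were under the filter. In the fit of every gene above 0, the log2 fold change was -0.054 for Exosc6 (limma, adjusted p = 0.737) and 0.0053 for Exosc10 (limma, adjusted p = 0.952), so no difference was detectable at these levels.

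**Figure D2:**
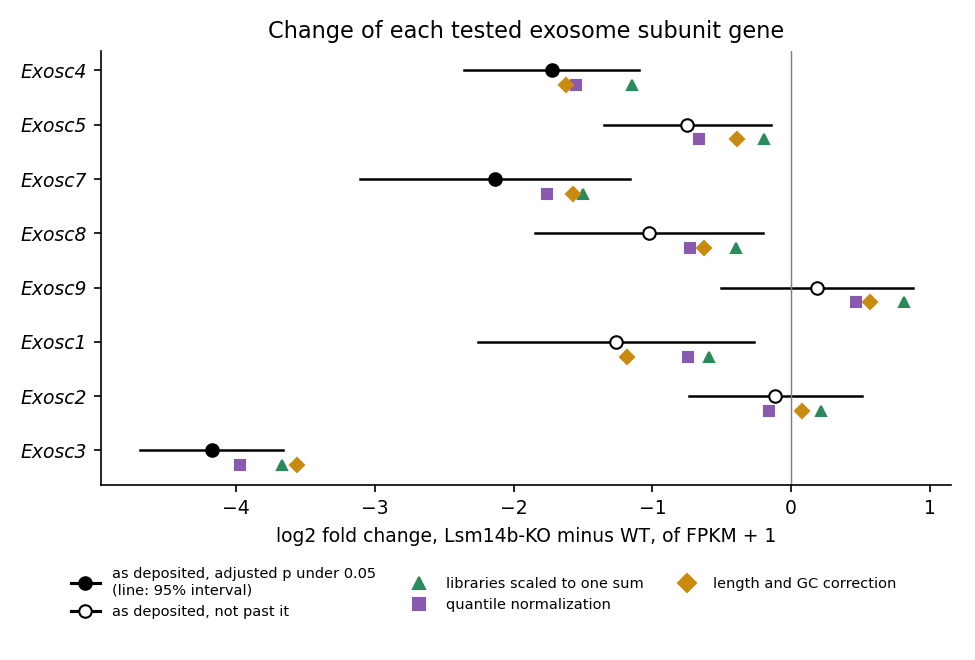
Log2 fold change of FPKM + 1 (Lsm14b-KO minus WT) of the 8 tested exosome subunit genes. Circles are the deposited values with their 95% intervals, filled where the adjusted p is under 0.05 (Exosc3, Exosc4 and Exosc7), and the small symbols are the same change with libraries scaled to one sum, after quantile normalization and after correction for transcript length and GC content. Only Exosc2 moves across 0 between these scalings, and Exosc9 is above 0 in all of them.

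The subunits kept no fixed proportions. In WT, the order of levels was Exosc1 (91.3 ± 9.61 FPKM, SD, n = 3), Exosc7 (45.1 ± 2.88), Exosc3 (34.9 ± 2.08), Exosc8 (16.9 ± 4.54), Exosc4 (13.9 ± 1.97), Exosc9 (9.29 ± 0.996), Exosc5 (4.59 ± 1.02) and Exosc2 (0.888 ± 0.491), followed by Exosc6 and Exosc10. Only Exosc8 with Exosc4, and Exosc6 with Exosc10, overlapped their neighbour in this order. In Lsm14b-KO, Exosc1 (41.9 ± 24.8 FPKM) still came first, and Exosc9 (11.2 ± 4.49), Exosc7 (10.9 ± 7.67), Exosc8 (8.13 ± 3.88) and Exosc4 (3.61 ± 1.40) each overlapped the next, down to Exosc5 (2.37 ± 0.877), which stood apart from Exosc3 below it. These overlaps are over libraries whose sums differed. Within a library, Exosc7 was above Exosc8 in all 3 Lsm14b-KO libraries, with ratios of 1.57, 1.11 and 1.08, while Exosc9 over Exosc7 was 0.824 in replicate 1 and 1.35 and 1.31 in replicates 2 and 3. Exosc3 stood beside Exosc2, at 0.998 ± 0.322 and 0.740 ± 0.437 FPKM, with overlapping values.

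Summed over the 10 genes, FPKM was 224, 221 and 206 in WT, against 126, 48.0 and 66.0 in Lsm14b-KO. The sum was lower in every Lsm14b-KO library, and the ratio of the means was 0.368. Taken as a percentage of all FPKM in the library it was 0.0183 ± 0.000476% in WT and 0.0102 ± 0.00188% in Lsm14b-KO (SD, n = 3 each), a ratio of 0.554. Exosc3 supplied 14.9%, 16.9% and 16.4% of the sum in WT, and 0.586%, 2.83% and 1.36% in Lsm14b-KO. Exosc7 went from 20.8 ± 0.482% to 12.9 ± 2.47%. Exosc9 went the other way, from 4.60%, 4.18% and 4.03% in WT to 12.9%, 16.1% and 14.5% in Lsm14b-KO, and none of these groups of shares overlapped. Shares must add up to 100%, so the rise in the share of Exosc9 is a matter of unequal change and says nothing of its own level. The ratio of Exosc9 to Exosc7 was 0.206 ± 0.0133 in WT and 1.16 ± 0.293 in Lsm14b-KO.

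**Figure D3:**
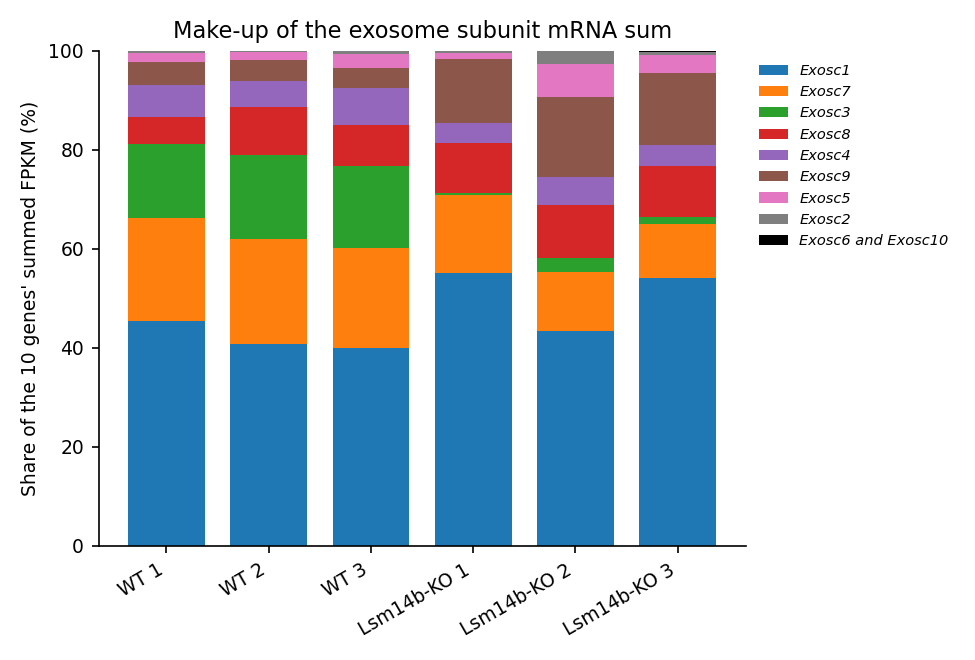
Share of each subunit gene in the summed FPKM of the 10 exosome subunit genes (%), one stacked bar per library. The band of Exosc3 shrinks from 14.9 to 16.9% in the WT libraries to 0.586 to 2.83% in the Lsm14b-KO libraries, while that of Exosc9 widens from 4.03 to 4.60% to 12.9 to 16.1%.

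Transcript length moved with the change over all genes. The median log2 fold change fell from 0.34 among the 736 tested genes of 5000 nt or more to -0.53 among the 777 genes from 800 up to 1200 nt, the class that holds Exosc3, Exosc5 and Exosc7, and to -0.69 among shorter ones. The 8 tested members had a median transcript length of 1459 nt (GENCODE vM21), against 2259 nt over the tested genes with a known length. After correction for length and GC content, the log2 fold changes were -3.56 for Exosc3 (limma, adjusted p = 0.000742), -1.62 for Exosc4 (limma, adjusted p = 0.00701) and -1.57 for Exosc7 (limma, adjusted p = 0.0123). Thus 3 members were called with the correction as without it, all of them lower. Over all 6322 genes in that fit, 1432 were called, 790 of them lower. The median of the 8 tested members was -0.91 against 0.095 for all genes tested in that fit. Scaling and correction shifted the median of all genes itself, by 0.475 with libraries scaled to one sum, 0.144 with quantile normalization and 0.170 with the length and GC correction. Measured from that median, the change of Exosc3 ran from -3.66 to -4.07 over these scalings.

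**Figure D4:**
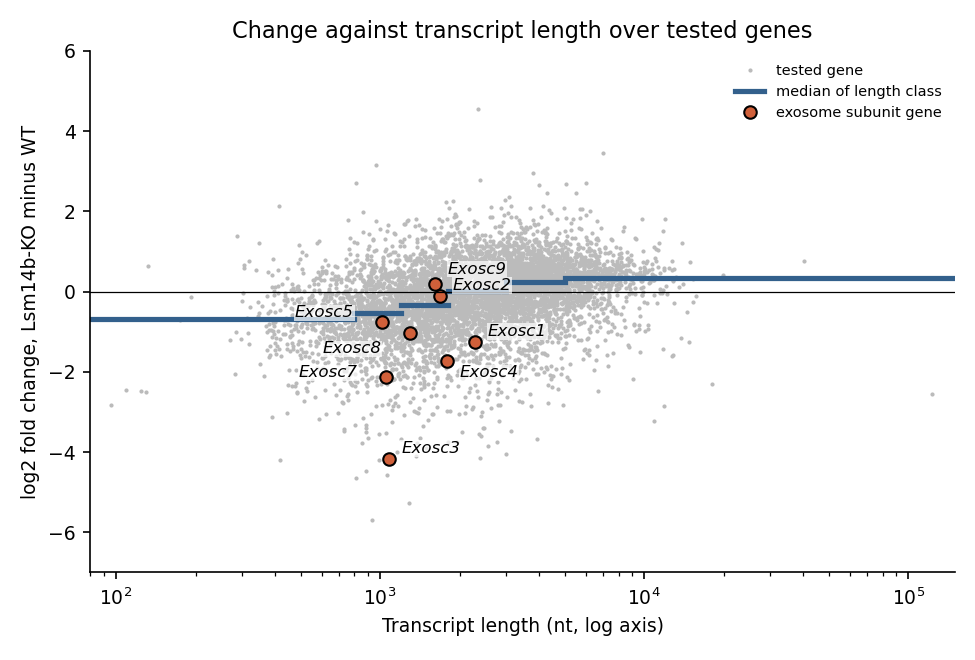
Log2 fold change (Lsm14b-KO minus WT) against transcript length (nt, log axis) for the tested genes with a known length (grey), with the median of each length class as a horizontal line and the 8 tested exosome subunit genes as large points. The class medians fall from 0.34 for the longest to -0.69 for the shortest transcripts, and Exosc3, at -4.18, lies far below the line of its class at -0.53.

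Promoter sequences from RefSeq (GRCm38.p6) were found for 8 of the 10 members, all but Exosc4 and Exosc9. The 150 bases before the start site are shown for Exosc3 and Exosc7, the genes with the largest falls, 5′ to 3′ on the gene's strand, with capitals marking the ETS core CCGGAA and the GC box GGGCGG where these letters or their reverse complement occur. The Exosc3 window is chr4:45320617-45320766 (minus strand), inside the span of a longer annotated transcript of the gene. The Exosc7 window is chr9:123113081-123113230 (plus strand), and its end lies inside the GENCODE vM21 span of the gene, which begins at 123113215.
Exosc3: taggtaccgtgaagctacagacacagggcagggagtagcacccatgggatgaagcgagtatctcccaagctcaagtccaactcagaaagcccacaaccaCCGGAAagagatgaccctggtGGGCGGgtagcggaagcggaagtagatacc
Exosc7: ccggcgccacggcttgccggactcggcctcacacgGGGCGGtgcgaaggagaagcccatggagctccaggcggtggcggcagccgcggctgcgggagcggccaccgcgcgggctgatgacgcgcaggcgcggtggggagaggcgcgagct
The windows differed in base composition, with 56.0% G or C in Exosc3 and 77.3% in Exosc7. Searched on both strands over 250 bases before the start, GGGCGG was found in 5 of 8 members (Exosc1, Exosc3, Exosc5, Exosc7 and Exosc8) and in 32.9% of 27025 promoters. CCGGAA was found in 1 of 8, Exosc3, and in 12.2% of promoters. The letters CCAAT were found in 3 of 8 members and in 34.5% of promoters, GCATGCGC in 2 of 8 (Exosc5 and Exosc10) and in 2.32%, and AAGATGG in 0 of 8 and in 4.53%. These matches are descriptions of sequence, and no factor's binding was measured.

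The nucleases and cofactors that work with the exosome were followed as a list of 19 genes, of which 11 were tested. In this list 1 gene was called lower (Mphosph6), against 15.2% of all tested genes, and 1 was called higher (C1d), against 6.38%. The groups did not overlap for 6 genes that were lower, against 26.0% of all tested genes, and for 2 that were higher, against 19.1%. The median log2 fold change was -0.45. The 9 tested genes that were not called had fitted changes from -0.88 to 1.39.

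Dis3 encodes the main nuclease of the nuclear exosome and was listed at 0.218, 0 and 0.0757 FPKM in WT and at 0, 0.0745 and 0.0334 FPKM in Lsm14b-KO. Dis3l, which encodes the cytoplasmic nuclease, stood at 0.390, 0.137 and 0.682 FPKM in WT and at 0.470, 0.818 and 0.768 FPKM in Lsm14b-KO. Both were under the filter, as was Exosc10, so none of the genes for the catalytic subunits reached 1 FPKM in any library. Per library, 4833 to 4964 of the 24255 genes reached 1 FPKM, so values under it do not show that an mRNA was absent.

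Mphosph6 encodes a nuclear protein that joins the exosome core to its helicase partner. It was the 4th most abundant mRNA among the tested genes in WT, at 36826, 34044 and 30506 FPKM, and stood at 23044, 5803 and 8942 FPKM in Lsm14b-KO. The groups did not overlap, and Lsm14b-KO replicate 1 was nearest to WT, as it was for Exosc1 and Exosc7. The log2 fold change was -1.67 ± 0.47 (SE; limma, adjusted p = 0.0406). The call was lost in fits without 1 library, with adjusted p = 0.128, 0.113 and 0.0988 without WT replicates 1, 2 and 3 (limma). Adjusted p was 0.0725 and 0.145 without Lsm14b-KO replicates 2 and 3 (limma). The number of all genes called also fell in these fits, from 1383 to 408, 426, 537, 915 and 321. Leaving out Lsm14b-KO replicate 1 gave -2.23 on the log2 scale (limma, adjusted p = 0.000138), in a fit that called 2952 genes in all. The call of Mphosph6 was also lost with quantile normalization (limma, adjusted p = 0.134) and when every gene above 0 was fitted (limma, adjusted p = 0.114). One other annotated gene, Gm11448, matched Mphosph6 over 458 nt at 96.5% identity, so its reads may be shared.

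C1d encodes the partner that binds EXOSC10 and RNA in the nucleus. It stood at 4.31, 2.30 and 5.09 FPKM in WT and at 59.1, 10.4 and 16.4 FPKM in Lsm14b-KO. All Lsm14b-KO libraries were above all WT libraries, with replicate 1 several times higher than the other two. The mean was 7.35-fold higher, and the log2 fold change was 2.27 ± 0.58 (SE; limma, adjusted p = 0.0304), the 13th largest rise among the tested genes. It was 1.57 without Lsm14b-KO replicate 1 (limma, adjusted p = 0.00379). The call was lost without WT replicates 1, 2 or 3 (adjusted p = 0.0925, 0.108 and 0.0744, limma) and without Lsm14b-KO replicate 3 (adjusted p = 0.0870, limma). Over all genes, 2952 were called without Lsm14b-KO replicate 1, against 1383 in the main fit. In the fits that lost the call, 408, 426, 537 and 321 were called. The call of C1d was also lost when every gene above 0 was fitted (limma, adjusted p = 0.0814).

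**Figure D5:**
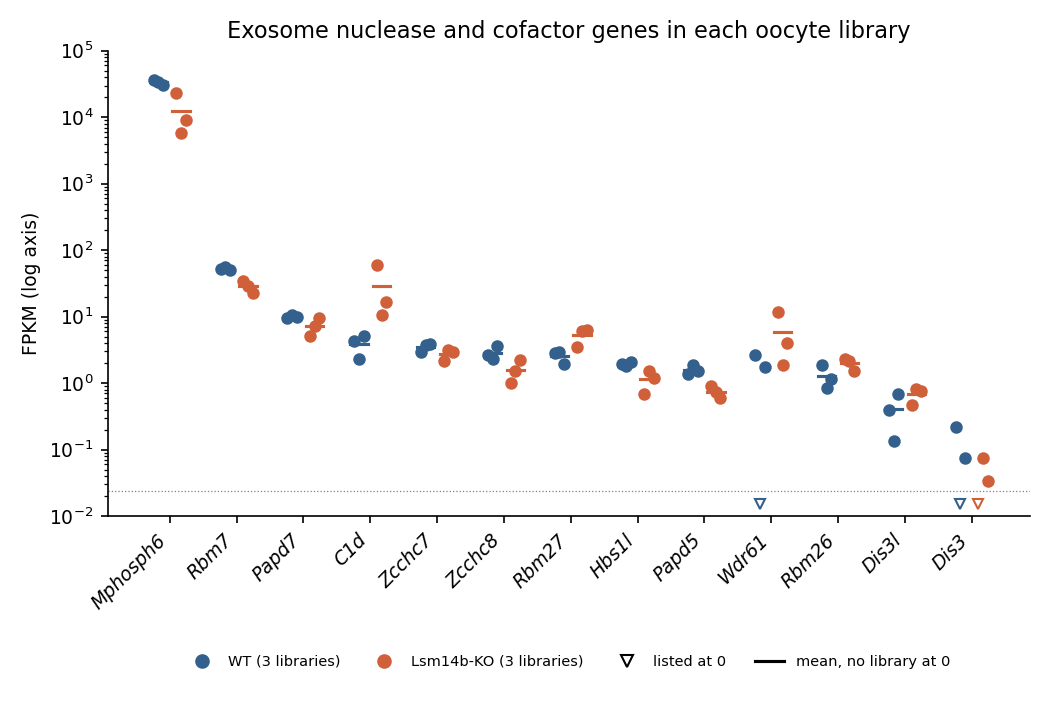
FPKM (log axis) of 13 exosome nuclease and cofactor genes, the 11 tested and Dis3 and Dis3l, in each of the 3 WT and 3 Lsm14b-KO libraries. Points are libraries, horizontal bars are group means where no library is at 0, and open triangles mark libraries listed at 0. Mphosph6 lies far above the rest, at 30506 to 36826 FPKM in WT, and C1d is the gene whose Lsm14b-KO libraries, at 10.4 to 59.1 FPKM, stand highest over WT.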

How the data were processed

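The authors trimmed the reads (150 bp pairs), aligned them to mm10 with TopHat2 2.0.13 and deposited one table of FPKM values from Cufflinks 2.2.1. The submitters' processing notes also name Cuffnorm and Cuffdiff. The annotation, strandedness and read totals are not given in the sources used here, and the labels name different library kits in different places. The 3 columns of the authors' own comparison (a log2 fold change, p-values and q-values) were not used. A spreadsheet had turned 27 gene symbols into dates.

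Groups came from the genotype labels. The deposited FPKM was put on the log2(FPKM + 1) scale, genes reaching 1 FPKM in 1 or more libraries were fitted with limma 3.58.1 in R 4.3.3 (lmFit, eBayes with an intensity trend, genotype as the only term), with two-sided p-values and Benjamini-Hochberg adjustment over 6398 genes. No counts were available, so no count model was fitted. Positions, overlaps and lengths (known for 98.8% of tested genes) came from GENCODE vM21, and copies were searched with blastn 2.17.0 at 95% identity over at least 200 nt. Alternatives were a pseudocount of 0.1, other filters and scalings, a loess correction (span 0.3) for length and GC content, no trend, the replicate number as a term, and leaving out each library.

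The members and lists were chosen with earlier results of these data known. Named were all 10 members, Lsm14b, Dis3, Dis3l and every cofactor gene with an adjusted p under 0.05. Other genes named (markers, overlapping genes and copies) serve only the checks beside those results.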

Additional observations from a re-analysis of the deposited data

How the results depend on the processing

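Over the tested genes, 1383 were called, falling to 720 when every gene above 0 was fitted and ranging from 321 to 2952 with 1 library left out, lowest without Lsm14b-KO replicate 3 and highest without Lsm14b-KO replicate 1. Of the exosome subunit genes, 3 were called, and 2 to 5 with 1 library left out. Of the cofactor genes, 2 were called, and limma called 0 of 19 when every gene above 0 was fitted (6 at an unadjusted p under 0.05), 4 with at least 1 FPKM in at least 3 libraries, 4 with libraries scaled to one sum, 1 with quantile normalization, 5 with the length and GC correction, 4 with the replicate block and that correction together, and 0 to 5 with 1 library left out. For comparison, 2518 of the 6398 tested genes had an unadjusted p under 0.05 in the main fit (limma). The share of all genes at that level was not computed when every gene above 0 was fitted. The cause of the changes in these counts was not tested. The sign of Exosc2 turned to 0.22 with libraries scaled to one sum, to 0.077 with the length and GC correction, with and without the replicate block, and it ranged from -0.31 to 0.084 with 1 library left out. Exosc9 ranged from -0.098 to 0.39 with 1 library left out. The log2 fold change of Lsm14b was called under all 15 alternatives. The split of calls moved with scaling, from 408 higher and 975 lower to 833 higher and 486 lower with libraries scaled to one sum, 540 and 735 with quantile normalization and 642 and 790 with the length and GC correction.

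With the replicate block, 1244 genes and 3 exosome subunit genes were called. Same-numbered libraries deviated together at r = 0.19, -0.128 and 0.0179, so the numbers were not taken to pair the libraries. With 3 libraries per group, no read totals and only FPKM, the genes under 1 FPKM in every library, such as Exosc6, Exosc10 and Dis3, were compared only in the fit of every gene above 0, where none of these 3 was called (limma, unadjusted p under 0.05 for 0 of them).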
